A study of Mus musculus with 9 samples.

Results

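The genes described here drive cell division: kinetochore and spindle proteins, mitotic kinases and cyclins, DNA replication factors, the cyclins of G1 and 2 inhibitors of cyclin-dependent kinases. They were chosen by name, 40 in all, and not by a threshold on their values, although earlier results of these data were known, and 39 of them had a probe set among the 18193 genes measured on the arrays. Ccnb1 had none. Each gene was represented by the probe set whose mean over all 9 arrays was highest. Transcript levels were compared in mouse heart tissue at 2 months of age on a C57BL/6 background. The 3 mutant samples were right atria of Myh6-cre; COUP-TFIIflox/flox mice, in which Cre recombinase under the cardiomyocyte promoter of Myh6 removes the nuclear receptor COUP-TFII (Nr2f2) from cardiomyocytes and leaves it in other cells. The 3 control right atria and the 3 control ventricles came from COUP-TFIIflox/flox mice without Cre. All groups thus carried the floxed alleles, and only the mutants carried Cre, so the presence of Cre and the loss of the gene cannot be told apart. The labels call the replicates biological and do not say whether animals were pooled. The question was whether Cenpf, a mitotic gene, differed between these tissues alone or together with the rest of the mitotic program.

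A dividing cell passes from G1, where D-type and E-type cyclins act on their kinases, through DNA replication to mitosis. Cyclin A and cyclin B with Cdk1 drive entry into mitosis, Aurora and Polo-like kinases build the spindle, and checkpoint proteins hold anaphase back until each kinetochore is attached. Many of these transcripts rise together late in the cycle, under factors of the E2F, MYB and FOXM1 families and through NF-Y, which binds CCAAT boxes. Most adult cardiomyocytes have left the cycle, so that cell cycle transcripts in an adult heart are sparse and come in part from other cells. Cenpf encodes a large protein of the outer kinetochore and the nuclear envelope that also binds microtubules. Its mouse form was also described in muscle under the name LEK1, as a partner of the retinoblastoma protein.

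The 250 bases before the transcription start are shown for Cenpf and for 3 other genes that rose in the mutant atria, since shared letters there are a common feature of late cell cycle genes. The sequences are those of RefSeq on GRCm38.p6, each read 5′ to 3′ on the strand of the gene, the minus strand in each case. They span chr1:189688087-189688336 for Cenpf, chr10:69352913-69353162 for Cdk1, chr7:135716380-135716629 for Mki67 and chr11:99024190-99024439 for Top2a. Capitals mark CCAAT, the letters of an NF-Y box, and TTTGAA, the letters of a cell cycle homology region (CHR), in either orientation, and no match overlapped another.
Cenpf: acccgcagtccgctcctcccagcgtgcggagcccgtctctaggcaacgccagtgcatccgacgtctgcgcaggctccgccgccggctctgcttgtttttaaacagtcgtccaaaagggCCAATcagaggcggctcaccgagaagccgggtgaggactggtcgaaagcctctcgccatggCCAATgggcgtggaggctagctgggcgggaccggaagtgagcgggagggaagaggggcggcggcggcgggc
Cdk1: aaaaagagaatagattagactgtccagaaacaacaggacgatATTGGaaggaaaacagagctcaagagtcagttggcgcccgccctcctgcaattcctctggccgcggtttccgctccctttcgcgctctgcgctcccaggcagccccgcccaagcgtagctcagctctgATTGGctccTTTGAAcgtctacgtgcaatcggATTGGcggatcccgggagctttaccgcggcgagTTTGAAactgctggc
Mki67: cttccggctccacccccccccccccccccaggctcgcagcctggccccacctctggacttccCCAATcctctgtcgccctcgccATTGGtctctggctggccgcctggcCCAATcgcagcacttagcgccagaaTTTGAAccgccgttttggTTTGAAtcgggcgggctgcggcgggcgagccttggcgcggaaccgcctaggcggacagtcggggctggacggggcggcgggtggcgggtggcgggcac
Top2a: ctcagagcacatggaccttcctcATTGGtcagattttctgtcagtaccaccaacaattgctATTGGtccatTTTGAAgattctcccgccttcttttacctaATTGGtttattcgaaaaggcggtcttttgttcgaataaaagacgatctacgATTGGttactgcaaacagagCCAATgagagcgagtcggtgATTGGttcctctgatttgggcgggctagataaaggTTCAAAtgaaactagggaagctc
The Cenpf stretch held CCAAT at 132 and at 71 bases before the start and did not hold TTTGAA. Cdk1 and Mki67 each held 3 matches to CCAAT and 2 to TTTGAA, and Top2a held 6 and 2. RefSeq promoters were matched for 32 of the 40 genes. Of these 32, 26 (81.2%) held CCAAT, against 33.8% of the 32851 promoters in the table. TTTGAA was held by 9 (28.1%) against 16.0%. The E2F letters GCGGGAA were held by 1, Mcm7 (3.12%), against 3.82%. AGGTCA, letters that nuclear receptors of the COUP-TF kind can bind, were held by 5 (15.6%), Anln, Ccnb1, Ccnd3, Mcm2 and Pcna, against 14% of the table. The shares are not counted alike. A gene of the 32 counted once if any of its starts held the letters, and 5 had more than 1 start. The table was counted by promoter. All 4 motifs were searched on both strands, and a match is a description of letters, not of binding.

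The labelled groups were checked first. The brightest Nr2f2 probe set gave 6.75 ± 0.12 in mutant atria against 7.49 ± 0.19 in control atria (SD, n = 3), a difference of -0.74 ± 0.15 (SE; limma adjusted p = 0.0109), in tissue where other cells keep the gene. Several lists of markers of other cells differed between the groups. Their counts lie beside the 7.76% of all genes that rose and the 9.79% that fell in mutant atria. Of 17 macrophage and myeloid markers, 8 rose and 0 fell in mutant atria; their mean log2 level was 9.45 to 10.03 in mutant atria, 9.16 to 9.25 in control atria and 8.56 to 9.10 in ventricles. All 11 mesothelial markers and 10 of 11 hepatocyte markers fell in mutant atria; the hepatocyte mean was 5.42 to 5.44 there, 7.41 to 9.86 in control atria and 5.30 to 5.39 in ventricles. Of 10 smooth muscle and pericyte markers 6 rose and 1 fell in mutant atria, and their mean was 9.59 to 9.70 there, 9.36 to 9.497 in control atria and 9.996 to 10.26 in ventricles. Of the cardiomyocyte markers of the chambers, 6 of 8 ventricular ones rose and 5 of 8 atrial ones fell. Of 14 T and B lymphocyte markers 2 rose, of 12 fibroblast markers 2 rose and 1 fell, and of 12 endothelial markers 2 fell. These small counts were not tested against the shares of all genes. Of 8 erythroid markers 0 were called in mutant atria, and 4 were higher in ventricles than in control atria, where 29.2% of all genes were. The 3′ over 5′ difference of the Gapdh control probe sets was 0.214 to 0.304 in mutant atria, 0.345 to 0.364 in control atria and 0.153 to 0.227 in ventricles. In bulk tissue, fewer cells of a type and less RNA per cell cannot be told apart.

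Cenpf was the gene that stood apart. Its highest probe set, 1427161_at, gave log2 intensities of 5.73, 6.28 and 6.13 in control atria, 9.19, 9.68 and 8.69 in ventricles and 10.80, 10.79 and 10.74 in mutant atria. Every mutant atrium lay above every ventricle, and every ventricle above every control atrium. The mutant mean was 26.5-fold above the control atria, a log2 difference of 4.73 ± 0.22 (SE; limma adjusted p = 2.1e-06), the rank 2 rise among 18193 genes. The ventricles exceeded the control atria 8.80-fold, by 3.14 ± 0.22 (adjusted p = 4.06e-06), at rank 19. The mutant atria exceeded the ventricles 3.01-fold, by 1.59 ± 0.22 (adjusted p = 0.000504), at rank 249. The control atrial level of 6.05 ± 0.28 lay below 6.58, the 40th percentile of the gene means, in the range where array background weighs most.

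The other probe sets of Cenpf differed in size and in 1 case in the call. Probe set 1452334_at, assigned to the same source sequence as the first, gave 5.88, 5.70 and 5.73 in control atria, 6.58, 6.53 and 6.51 in ventricles and 7.32, 7.43 and 7.49 in mutant atria. The order of the groups was the same, again without overlap, and the steps were smaller: 1.64 ± 0.07 for mutant over control atria, 0.77 ± 0.07 for ventricles over control atria and 0.88 ± 0.07 for mutant atria over ventricles, each past the threshold in a fit of every probe set (adjusted p = 1.2e-06, 2.98e-05 and 2.65e-05). Probe set 1458447_at, assigned to another source sequence, gave 4.48, 4.48 and 4.31 in control atria, 4.55, 4.44 and 4.68 in ventricles and 4.47, 4.48 and 4.47 in mutant atria. These arrays overlapped in each comparison, and the mutant difference was 0.05 ± 0.08 (adjusted p = 0.736), with a level at percentile 14.7 of the means of all probe sets used. Averaged over its probe sets, Cenpf was higher by 2.14 in mutant than in control atria, by 1.35 in ventricles than in control atria and by 0.79 in mutant atria than in ventricles. Cenpf by its highest probe set or by this mean passed the threshold in all 3 comparisons under each of the 24 alternatives run, with highest adjusted p-values of 0.0228, 0.0285 and 0.00724.

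**Figure D1:**
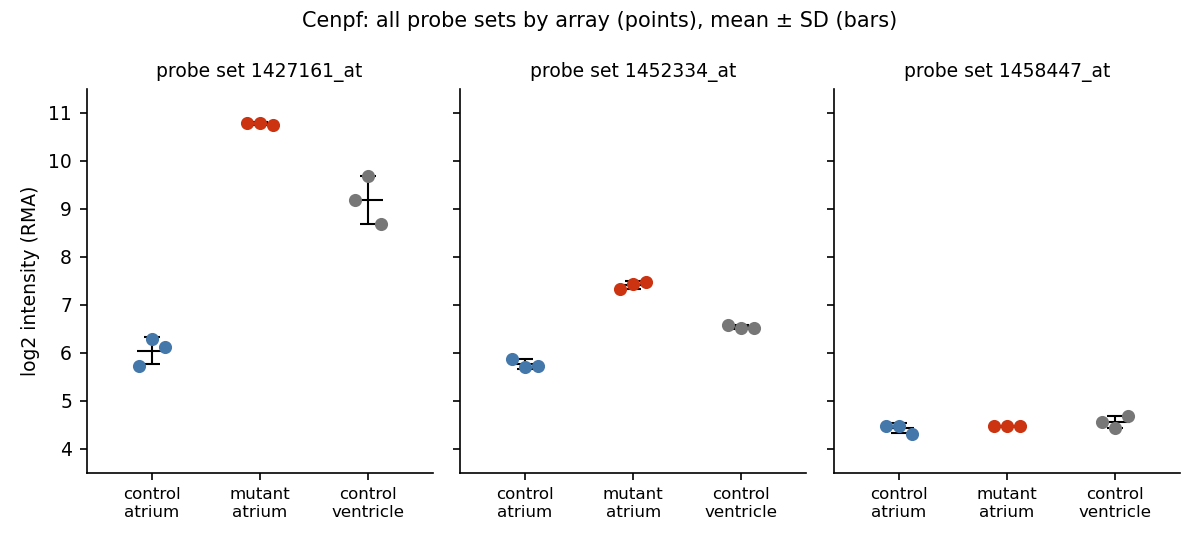
Log2 intensity (vertical axis) of the 3 probe sets of Cenpf on each array (points) in control atria, mutant atria and control ventricles, with mean ± SD (bars, n = 3). In 1427161_at and 1452334_at the groups do not overlap and run from control atrium through ventricle to mutant atrium; in 1458447_at all 9 arrays lie between 4.31 and 4.68.

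The remaining cell cycle genes differed far less between mutant and control right atria. Of the 39 genes, 6 rose in the mutant atria (15.4%), where 7.76% of all genes rose, and 2 fell (5.13%), where 9.79% of all genes fell. The genes that rose were Cenpf, Mki67, Top2a, Ccna2, Cdk1 and Ccnd2; those that fell were Ect2 and Mcm4. The median difference was 0.15 over the 39 genes and 0.03 over all genes. Of the 22 mitotic genes other than Cenpf (kinetochore, kinase, spindle and chromatin roles), 18 lay above 0 and 4 below. Of all 18193 genes, 10075 and 8118 did. In 10 every mutant atrium lay above every control atrium and in 2 below, against 18.9% and 18.9% of all genes. The mean log2 level of the 22 was 5.88 to 5.95 in mutant atria, 5.69 to 5.77 in control atria and 5.81 to 5.89 in ventricles. They were not tested as a set. Cenpf was the only one of the 39 to differ by 2-fold or more, as 2.46% of all genes did, and the difference nearest to it in size was that of Mki67, at 0.61 ± 0.10. Of the 39 genes, 22 had a mean level below the 40th percentile of the gene means, which limits what a difference there can show. Among the called genes these include Mki67 (percentile 36.7), Top2a (37.1), Ccna2 (34.9) and Ect2 (8.81). Intensities of different probe sets are not on a common scale, so the levels below are compared between groups and not between genes.

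Both genes of proliferation-linked chromatin rose in the mutant atria, where 7.76% of all genes rose. Mki67, which encodes the Ki-67 protein that coats mitotic chromosomes, gave 6.59, 6.89 and 6.51 in mutant atria against 6.02, 5.98 and 6.15 in control atria, without overlap. Its rise was 1.53-fold (0.61 ± 0.10; limma adjusted p = 0.00397) and stayed past the threshold whichever array was left out. Top2a, the topoisomerase that untangles replicated chromosomes, gave 6.55, 6.79 and 6.39 against 5.96, 6.03 and 6.18, a rise of 0.52 ± 0.15 (adjusted p = 0.0397). The Top2a arrays did not overlap, but the call was lost without mutant replicate 1 (adjusted p = 0.0763) or 2 (0.131), control atrium replicate 1 (0.122) or 2 (0.106), or ventricle replicate 1 (0.0563). Of its 3 probe sets only this one was called, with differences from 0.13 to 0.52. Its suffix marks probes that match several transcripts of the gene, and the brightest of the others, used in its place, gave an adjusted p of 0.516. Mutant replicate 2, the highest mutant array in Mki67, Top2a and Ccna2, also had the highest macrophage marker level (10.03). Between the other mutant atria the order was not shared. Mutant replicate 1 had a lower macrophage level than mutant replicate 3 (9.45 against 9.74) but higher Mki67 and Top2a, and Ccna2 was 6.24 in both. The part of macrophages in these rises was not tested.

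Among the mitotic kinases, cyclins and the anaphase activator, 2 of 6 measured genes rose and 0 fell, beside 7.76% and 9.79% of all genes. Cdk1, the kinase that drives mitotic entry, gave 6.87, 6.92 and 6.67 in mutant atria and 6.19, 6.27 and 6.58 in control atria. The lowest mutant array was only just above the highest control array, and the rise was 0.47 ± 0.12 (limma adjusted p = 0.025). Without mutant replicate 1 or 2 or control atrium replicate 1 or 2, the adjusted p was 0.0641, 0.0856, 0.0889 and 0.0835. Ccna2, cyclin A2 of S phase and early mitosis, gave 6.24, 6.66 and 6.24 against 5.83, 5.73 and 6.07, again without overlap, a rise of 0.51 ± 0.12 (adjusted p = 0.0226). Its call was lost without mutant replicate 2 (adjusted p = 0.0537) or control atrium replicate 1 (0.0737) or 2 (0.081). The genes of this role that did not pass were Ccnb2, a mitotic cyclin, with 0.29 ± 0.11 (adjusted p = 0.0953), the Polo-like kinase Plk1 with 0.18 ± 0.08 (0.137), the Aurora kinase Aurka with 0.15 ± 0.14 (0.514) and the anaphase activator Cdc20 with -0.25 ± 0.09 (0.0902). Plk1 passed only without control atrium replicate 3 (0.0495) among the arrays left out.

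None of the 6 other kinetochore and chromosome passenger genes was called in the mutant atria, where 7.76% of all genes rose and 9.79% fell. Their differences were all above 0 and ran from 0.15 to 0.39, with a median of 0.23, beside 4.73 for Cenpf. Cenpa, the histone H3 variant that marks the centromere, had the largest, 0.39 ± 0.15 (limma adjusted p = 0.103), and passed without mutant replicate 2 (0.0203). Cenpe, the kinetochore motor, differed by 0.15 ± 0.13 (adjusted p = 0.442). The checkpoint kinase Bub1 gave 4.24, 4.09 and 4.37 in mutant atria and 3.99, 3.97 and 3.99 in control atria. Its arrays did not overlap, yet the difference of 0.25 ± 0.11 missed the threshold (adjusted p = 0.152). Its relative Bub1b differed by 0.21 ± 0.07 (0.0831), the passenger kinase Aurkb by 0.18 ± 0.08 (0.161) and its partner Birc5 (survivin) by 0.32 ± 0.15 (0.183).

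Spindle motors and cytokinesis genes gave 0 rises and 1 fall among 8, beside 7.76% and 9.79% of all genes. Ect2, the exchange factor that activates RhoA at the cleavage site, gave 4.05, 4.32 and 4.26 in mutant atria and 4.60, 4.57 and 4.49 in control atria, without overlap. It fell by 0.34 on the log2 scale (SE 0.09; limma adjusted p = 0.0334), and the call was lost without mutant replicate 1 (0.0891) or 3 (0.067) or control atrium replicate 1 (0.0998) or 2 (0.0919). The Ect2 call was also lost with an offset of 32 before log2 (0.0587). The midbody motor Kif23 differed by 0.27 ± 0.08 and missed the threshold narrowly (adjusted p = 0.0516), passing without ventricle replicate 1 (0.0456). The differences of Kif11, Kif20a, Nusap1, Tpx2, Prc1 and Anln lay between -0.18 and 0.20, each with an adjusted p above 0.1. Anln, the actin-binding anillin of the cleavage furrow, passed as lower without control atrium replicate 3 (0.0442). For Kif11, the motor that separates spindle poles, 1 of 3 probe sets, 1435306_a_at, was higher by 0.54 (adjusted p = 0.0112), while the probe set used here gave 0.12 ± 0.07.

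Of 9 DNA replication genes, 0 rose and 1 fell (11.1%), beside 9.79% of all genes that fell. Their median difference was -0.19, and that of the 22 mitotic genes other than Cenpf was 0.19; the difference between these groups of genes was not tested. Mcm4, a subunit of the replicative helicase, gave 8.90, 8.77 and 8.68 in mutant atria and 9.02, 9.02 and 9.04 in control atria, a fall without overlap of 0.25 on the log2 scale (SE 0.07; limma adjusted p = 0.0364). Its call was lost without mutant replicate 2 (0.104) or 3 (0.13) or control atrium replicate 1 (0.0856), 2 (0.0878) or 3 (0.0759). Quantile normalisation (0.108), the replicate block (0.0504), the mean of probe sets (0.0779) and only the 2 groups compared (0.0573) also took it away. Mcm2, Mcm3, Mcm5 and Mcm7 of the same helicase differed by -0.31 to -0.10 and did not pass. Mcm6 gave 8.35, 8.41 and 8.17 in mutant atria against 7.88, 8.04 and 7.48 in control atria, above them without overlap. That difference of 0.51 ± 0.15 missed the threshold (adjusted p = 0.051) and passed without control atrium replicate 2 (0.0412) or ventricle replicate 2 (0.0397). It also passed with quantile normalisation (0.0272), with the intensity trend (0.0423) and without the dimmest 40% of genes (0.0389). Under quantile normalisation Mcm6 was thus called higher and Mcm4 was not called. The sliding clamp Pcna differed by -0.28 ± 0.11 (0.127). Without mutant replicate 1, which held the highest mutant value of both genes, Mcm7 (0.0042) and Pcna (0.00905) passed as lower. Rrm2 and Tyms, which supply nucleotides, differed by 0.02 ± 0.07 and -0.09 ± 0.08.

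**Figure D2:**
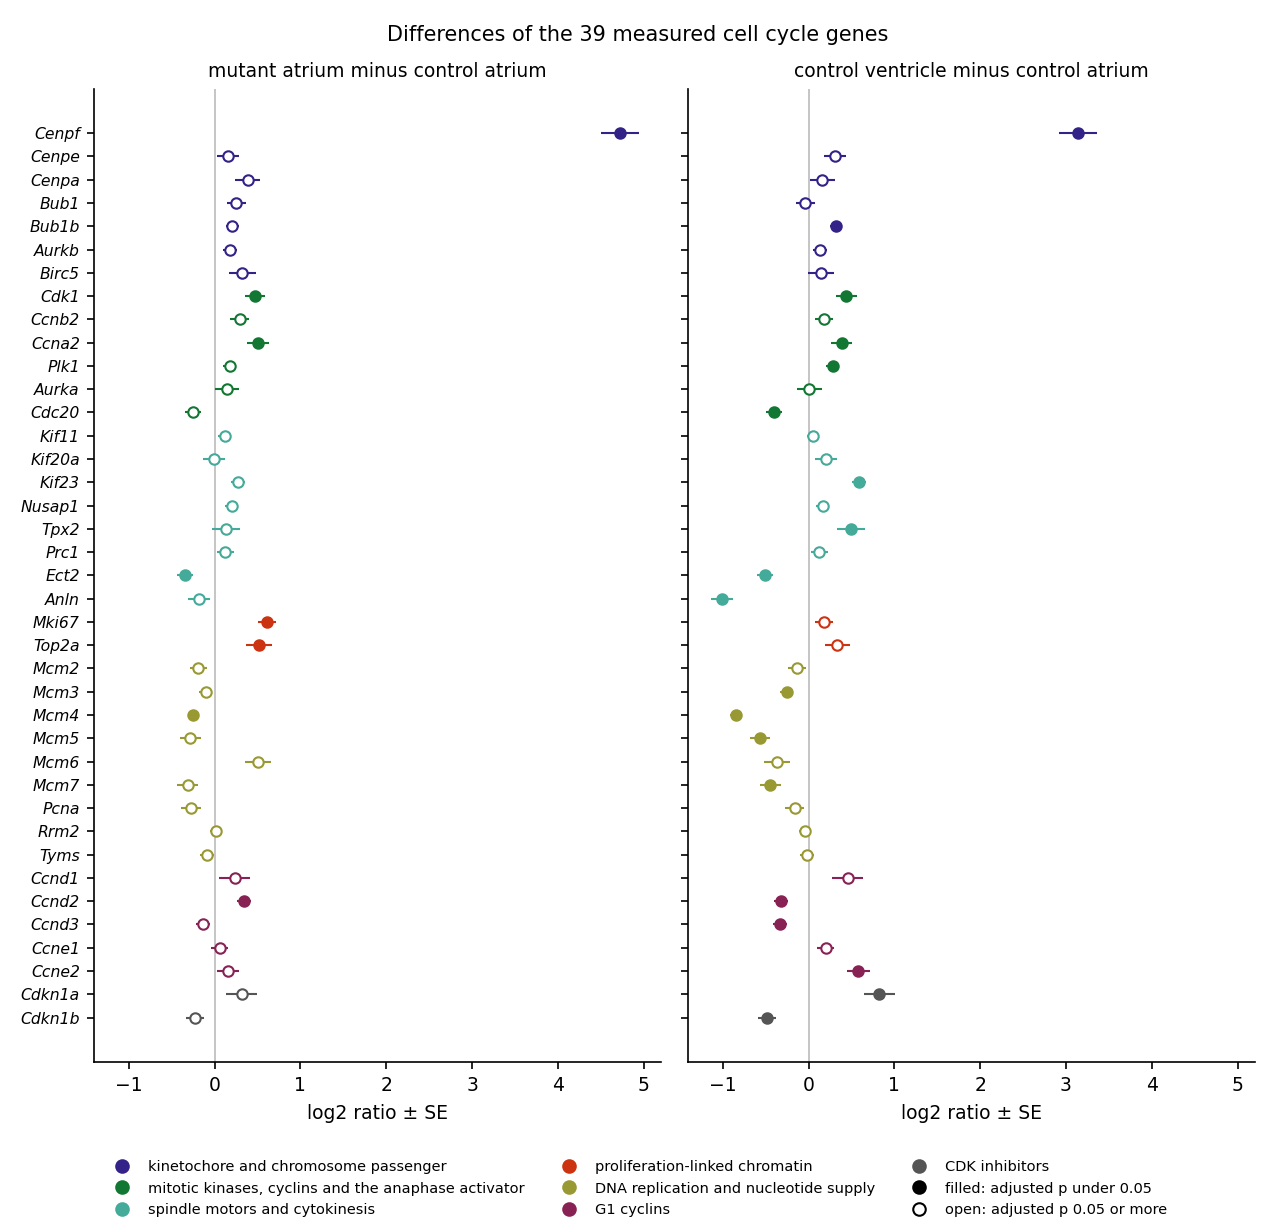
Log2 ratio ± SE (horizontal axis) of the 39 measured cell cycle genes, grouped by role (colours), for mutant minus control right atrium (left) and control ventricle minus control right atrium (right); filled points passed the threshold. Cenpf lies at 4.73 and 3.14, and the other genes lie between -0.34 and 0.61 on the left and between -1.0 and 0.83 on the right.

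Of 5 G1 cyclins, 1 rose in the mutant atria and 0 fell, beside 7.76% and 9.79% of all genes. Ccnd2, the D-type cyclin with the highest level percentile of all 39 genes (96.6), gave 12.18, 12.43 and 12.31 in mutant atria and 11.93, 12.01 and 11.95 in control atria. The arrays did not overlap, and the rise was 1.27-fold (0.34 ± 0.08; limma adjusted p = 0.0213). In the fit of every probe set, 6 of its 7 were higher, with differences of all 7 from 0.34 to 0.86. Leaving out mutant replicate 2 (0.0776) or 3 (0.0637) or control atrium replicate 1 (0.0686) took the call away. Ccnd1, Ccnd3, Ccne1 and Ccne2 differed by 0.24 ± 0.18, -0.14 ± 0.08, 0.06 ± 0.10 and 0.16 ± 0.13 and did not pass. Neither inhibitor was called: Cdkn1a (p21), which halts the cycle after p53 activation, gave 9.96, 9.28 and 9.46 against 9.23, 9.07 and 9.46, an overlap, and Cdkn1b (p27), which holds cells at rest, differed by -0.23 ± 0.10 (adjusted p = 0.163).

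Across these roles, calls were sensitive to single arrays, as they were over all genes. The count of the 39 that rose in mutant atria went from 6 to 3 without mutant replicate 2. It went to 2, Cenpf and Mki67, without control atrium replicate 1. Over all genes, the count went from 1411 to 781 and 809 in these fits. The count of the 39 that fell went from 2 to 1 without mutant replicate 2. It was 0 without mutant replicate 3 or control atrium replicate 1 or 2. Over all genes, the falls went from 1781 to 1051 without mutant replicate 2. They went to 1140, 1163 and 1110 without the other arrays, in the same order. The mean level of hepatocyte markers separated control atria from both other groups. With it as a covariate, Cenpf alone of the 39 was called, and 0.39% of all genes were, against 17.5% without it. These losses are thus not particular to the cell cycle genes, and such a covariate is hard to tell apart from the group. Some of the estimates moved too. That of Cdk1 went from 0.47 to -0.060, Ccna2 from 0.51 to 0.12, Top2a from 0.52 to 0.22 and Mki67 from 0.61 to 0.42. Ect2 went from -0.34 to -0.21. Ccnd2 (0.34 before and after) and Mcm4 (-0.25 before, -0.27 after) lost their calls with little change in the estimate. Of the 39 genes, 13 were higher and 4 lower in all mutant than in all control atria; over all genes 18.9% and 18.9% were.

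**Figure D3:**
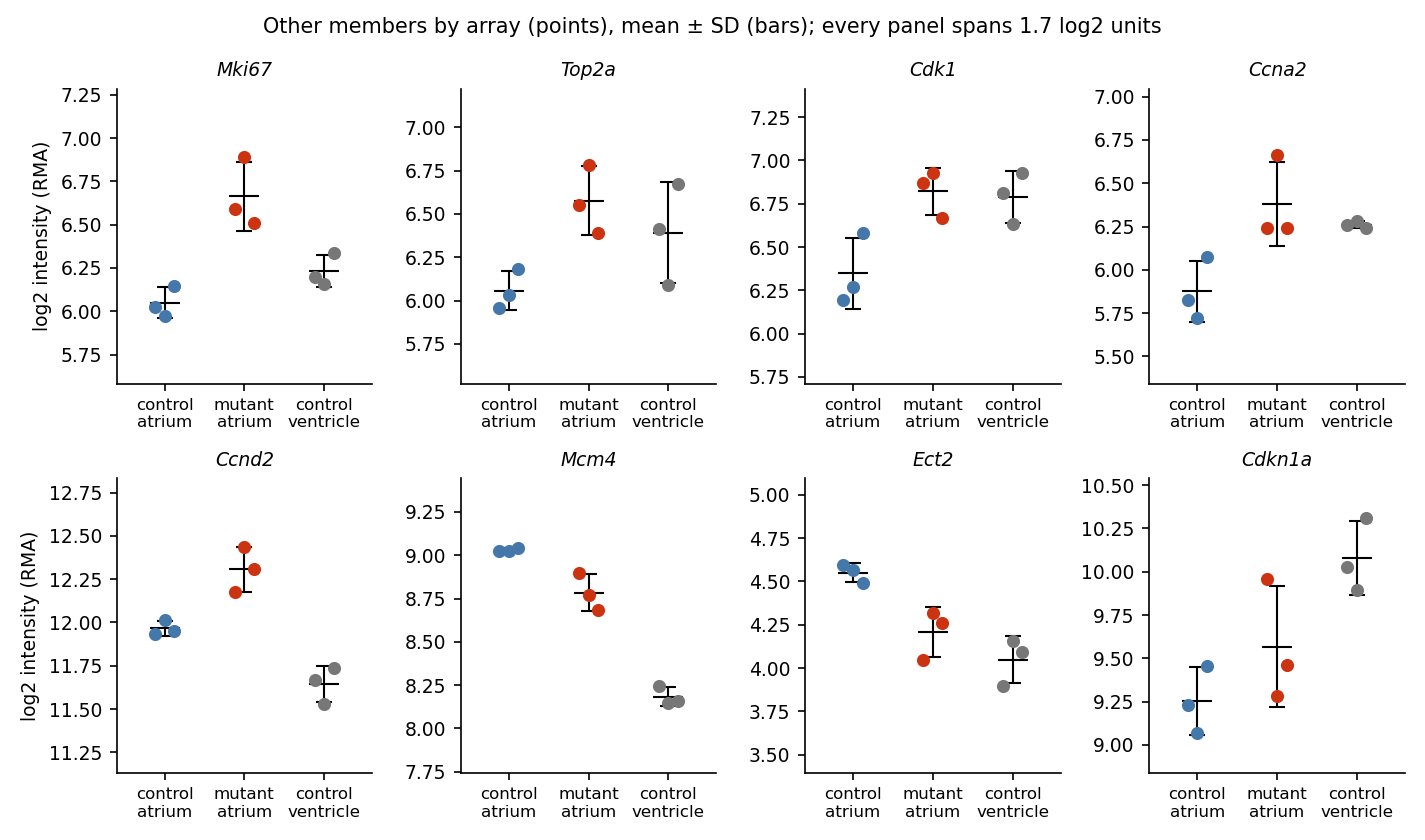
Log2 intensity (vertical axes, each spanning 1.7 log2 units) on each array (points) with mean ± SD (bars, n = 3) for 7 genes other than Cenpf that were called in mutant against control atria and for Cdkn1a. Mki67 is highest in mutant atria, Ccnd2 is highest in mutant atria and lowest in ventricles, and the means of Mcm4 and Ect2 are highest in control atria and lowest in ventricles.

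Control ventricle and control right atrium, the second comparison, differed in more of these genes and in both directions. Of the 39, 9 were higher in ventricles (23.1%), where 29.2% of all genes were, and 10 were lower (25.6%), where 23.6% of all genes were. The genes called higher were Cenpf, Bub1b, Cdk1, Ccna2, Plk1, Kif23, Tpx2, Ccne2 and Cdkn1a. Those called lower were Cdc20, Ect2, Anln, Mcm3, Mcm4, Mcm5, Mcm7, Ccnd2, Ccnd3 and Cdkn1b. Cenpf and Anln differed by 2-fold or more, as did 7.2% of all genes. Without regard to the test, 10 genes were higher in every ventricle than in every control atrium and 11 were lower, against 33% and 26.7% of all genes. With the hepatocyte covariate, only Cenpf (limma adjusted p = 0.0285) and Mcm4 (0.0278) kept their calls in this comparison. The share called over all genes went from 52.8% to 6.79% with that covariate.

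The mitotic genes were mixed in this comparison. Kif23 gave 7.11, 7.29 and 7.27 in ventricles and 6.70, 6.51 and 6.69 in control atria, higher by 0.59 ± 0.08 without overlap (limma adjusted p = 0.00032). Cdk1 was higher by 0.44 ± 0.12 (0.0121), Bub1b by 0.32 ± 0.07 (0.0054) and Plk1 by 0.28 ± 0.08 (0.0108), and each kept its call whichever array was left out. With the Y-linked covariate, Cdk1 (0.0519) and Plk1 (0.0856) lost the call, where 41.1% of all genes were called against 52.8% without it. Ccna2, higher by 0.39 ± 0.12 (0.0265), lost its call without control atrium replicate 1 (0.076) or 2 (0.0942) or ventricle replicate 1 (0.0607), 2 (0.0643) or 3 (0.0541). Tpx2, an activator of Aurka on the spindle, was higher by 0.50 ± 0.16 (0.0268) and lost it without control atrium replicate 1 (0.098) or 2 (0.0642) or ventricle replicate 1 (0.0934) or 2 (0.0751). Anln gave 5.35, 5.41 and 5.34 in ventricles against 6.41, 6.65 and 6.06 in control atria, which set it 2.01-fold lower (-1.0 ± 0.13; 0.000188). Ect2 was lower by -0.50 ± 0.09 (0.00168) and Cdc20 by -0.41 ± 0.09 (0.00493). Neither Mki67 (0.18 ± 0.10; 0.16) nor Top2a (0.33 ± 0.15; 0.0822) passed between ventricles and control atria, although Top2a did without ventricle replicate 2 (0.0164). Cenpe, at 0.31 ± 0.13 (0.0672), passed without mutant replicate 1 (0.0441) or ventricle replicate 2 (0.0485).

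Of the 9 replication genes, 4 were lower in ventricles than in control atria (44.4%), beside 23.6% of all genes, and 0 were higher. They were 4 of the 6 helicase subunits, and the differences of all 9 genes lay between -0.85 and -0.02. Mcm4 gave 8.25, 8.14 and 8.16 in ventricles, below every atrial array, and differed from control atria by -0.85 ± 0.07 (limma adjusted p = 1.01e-05). Mcm5 differed by -0.57 ± 0.12 (0.00386) and Mcm7 by -0.44 ± 0.12 (0.0139). Mcm3 differed by -0.25 ± 0.08 (0.02), lost its call without control atrium replicate 1 (0.0664) or 2 (0.0631) or ventricle replicate 3 (0.0659), and had another probe set, 1420029_at, that was higher in ventricles by 0.43 (0.00175 in the fit of every probe set). Mcm2, at -0.13 ± 0.10 (0.288), did not pass, and Mcm6, at -0.37 ± 0.15 (0.0711), passed only without control atrium replicate 3 (0.0117).

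The G1 genes split as well. Ccnd2 gave 11.67, 11.53 and 11.74 in ventricles and was lower than in control atria by -0.32 ± 0.08 (limma adjusted p = 0.00953), without overlap. The mean of its 7 probe sets gave -0.19 and lost the call (0.156), as did the Y-linked covariate with -0.21 (0.121). Ccnd3, another D-type cyclin, was lower by -0.33 ± 0.08 (0.00693) and also lost its call with the Y-linked covariate (0.0637). Ccne2, an E-type cyclin of S phase entry, was higher by 0.58 ± 0.13 (0.00483). Ccnd1 missed the threshold at 0.46 ± 0.18 (0.0584) and passed without mutant replicate 2 (0.0497) or control atrium replicate 3 (0.0284), and Ccne1 passed without the latter (0.0253). The inhibitors went in opposite directions: Cdkn1a gave 10.03, 9.89 and 10.31 in ventricles and was higher by 0.83 ± 0.18 (0.00387), while Cdkn1b gave 10.31, 10.63 and 10.46 and was lower by -0.49 ± 0.10 (0.00355). The call of Cdkn1a was lost with the Y-linked covariate (0.0592).

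In the comparison of mutant right atrium with control ventricle, 6 of the 39 genes were higher in mutant atria (15.4%), where 16% of all genes were, and 2 were lower (5.13%), where 16.7% were. Cenpf, Anln, Mki67, Mcm4, Mcm6 and Ccnd2 were higher, and Kif23 and Ccne2 were lower. In 9 genes every mutant atrium lay above every ventricle and in 4 below, against 20.5% and 26.8% of all genes. Mki67, at 6.20, 6.16 and 6.34 in ventricles, was higher in every mutant atrium, by 0.43 ± 0.10 (limma adjusted p = 0.0107). Its call was lost with the Y-linked covariate (0.0789). Mcm6 differed by 0.87 ± 0.15 (0.00215), Anln by 0.83 ± 0.13 (0.001), Ccnd2 by 0.66 ± 0.08 (0.000271) and Mcm4 by 0.60 ± 0.07 (0.000162). Kif23 differed by -0.32 ± 0.08 (0.0148) and lost its call without mutant replicate 3 (0.0552) or ventricle replicate 2 (0.0517). Ccne2 differed by -0.42 ± 0.13 (0.0328) and lost it without mutant replicate 1 (0.0999) or 3 (0.113) or ventricle replicate 1 (0.0575), 2 (0.102) or 3 (0.0566). Cdk1 and Ccna2, which were higher than control atria in both other groups, differed by 0.03 ± 0.12 and 0.12 ± 0.12 between mutant atria and ventricles. Of the macrophage markers, 14 of 17 were higher in mutant atria than in ventricles. In ventricles against control atria 7 of 17 were lower, where 23.6% of all genes were. Of 10 smooth muscle and pericyte markers, 8 were higher and 1 lower in ventricles than in control atria, beside 29.2% and 23.6% of all genes. In mutant against control atria 6 were higher and 1 lower, beside 7.76% and 9.79%. The part of these cells in the levels of Cdk1 and Ccna2 was not tested.

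Genes of the same processes beyond the 39 were counted in textbook lists, of which those of D-type cyclins and of kinase inhibitors hold some of the 39 too. In mutant against control atria, 1 of 38 further kinetochore and checkpoint genes rose and 5 fell, with a median of 0.02. The count was 1 and 1 of 23 for spindle motors and assembly, 0 and 3 of 28 for mitotic entry, exit and checkpoint kinases, 0 and 4 of 18 for condensin, cohesin and chromatin, and 2 and 3 of 41 for replication origin and DNA synthesis. Of 17 E2F, MYB and FOXM1 family factors 1 rose and 2 fell, of 5 D-type cyclins and G1 kinases 2 rose, of 10 inhibitors and pocket proteins 0 were called either way, and of 17 p53 target genes 1 rose and 2 fell. These shares lie beside the 7.76% and 9.79% of all genes. In ventricles against control atria, where 29.2% of all genes were higher and 23.6% lower, 9 of the 38 kinetochore and checkpoint genes were higher and 12 lower. The counts higher and lower were 8 and 2 of 23 for spindle motors and assembly, 10 and 4 of 28 for mitotic entry, exit and checkpoint kinases, 1 and 9 of 18 for condensin, cohesin and chromatin, and 11 and 8 of 41 for replication origin and DNA synthesis. They were 7 and 1 of 17 for the E2F, MYB and FOXM1 families, 0 and 2 of 5 for D-type cyclins and G1 kinases, 2 and 3 of 10 for inhibitors and pocket proteins, and 4 and 3 of 17 for p53 targets.

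A pair of these genes rose in mutant atria by more than any of the 38 genes beside Cenpf. Sgo2a (shugoshin 2), which protects centromeric cohesin, gave 7.21, 6.88 and 6.92 in mutant atria, 5.61, 5.21 and 5.53 in control atria and 8.51, 8.56 and 8.58 in ventricles. The groups did not overlap, and the ventricles were highest. Sgo2a rose by 1.56 ± 0.12 in mutant atria (limma adjusted p = 4e-05) and was higher by 3.10 ± 0.12 in ventricles than in control atria (1.21e-07). Gmnn (geminin), which blocks the licensing of replication origins, gave 9.13, 9.73 and 9.39, then 8.44, 8.62 and 8.27, then 10.93, 10.86 and 10.79 in the same order. It rose by 0.97 ± 0.14 in mutant atria (0.00205) and was higher by 2.42 ± 0.14 in ventricles than in control atria (1.49e-06). Both also differed between mutant atria and ventricles, with mutant atria lower by -1.54 ± 0.12 (1.48e-05) for Sgo2a and -1.45 ± 0.14 (7.2e-05) for Gmnn, where Cenpf was higher. With the hepatocyte covariate, the differences in mutant against control atria were 1.53 for Sgo2a and 1.30 for Gmnn. Their calls were lost (limma adjusted p = 0.0963 and 0.23). Most other genes lost theirs too, since 0.39% of all genes were called with it and 17.5% without it.

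The falls in mutant atria with the smallest p in these lists included the following genes. Ncapd3, a condensin II subunit, gave 9.59, 9.20 and 9.35 in mutant atria and 10.43, 10.35 and 10.18 in control atria, a difference of -0.94 ± 0.11 (limma adjusted p = 0.000454). Smc2, the condensin ATPase, differed by -0.53 ± 0.08 (0.00258), the clamp loader subunit Rfc5 by -0.61 ± 0.10 (0.00429), and the kinetochore genes Mis12 and Dsn1 by -0.41 ± 0.07 (0.00529) and -0.43 ± 0.08 (0.00637). Ndel1, a dynein regulator, differed by -0.57 ± 0.07 (0.000676), Cks1b, a subunit of cyclin-dependent kinases, by -0.52 ± 0.10 (0.00612) and the phosphatase Cdc25a by -0.31 ± 0.06 (0.00846). Each of these 8 genes kept its call whichever array was left out, but Cks1b lost it with probe sets that have no suffix (0.104). All 8 lost it with the hepatocyte covariate, with adjusted p-values from 0.102 for Ndel1 to 0.915 for Rfc5. Their estimates then ran from -0.78 for Ndel1 to -0.12 for Rfc5. Those of Ndel1, Cks1b (-0.75) and Cdc25a (-0.39) were larger in size than before, and the others were smaller. That covariate left 0.39% of all genes called, against 17.5% without it. Foxm1, the late cell cycle transcription factor, differed by 0.07 ± 0.06 in mutant atria (0.414) and was higher by 0.36 ± 0.06 in ventricles than in control atria (0.000743). Cdk6, a partner of D-type cyclins, rose by 0.36 ± 0.10 in mutant atria (0.0353), a call lost without mutant replicate 2 (0.118) or 3 (0.121) or control atrium replicate 1 (0.0571), 2 (0.112) or 3 (0.0729).

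**Figure D4:**
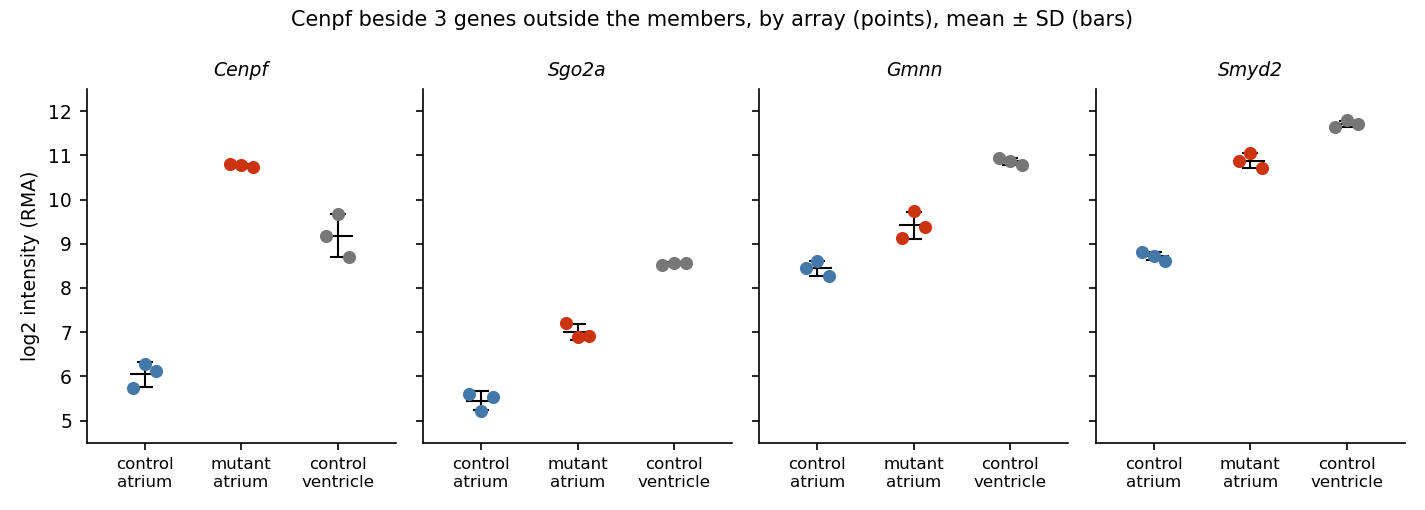
Log2 intensity (vertical axis) on each array (points), with mean ± SD (bars, n = 3), of Cenpf beside Sgo2a, Gmnn and Smyd2 in control atria, mutant atria and control ventricles. All 4 are lowest in control atria; Cenpf is highest in mutant atria (10.78) and the others are highest in ventricles.

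The neighbours of Cenpf on its chromosome were examined among the 4 protein-coding genes on either side in the order of the RefSeq table; 6 of the 8 had a probe set. Smyd2, a lysine methyltransferase and the gene after next on one side, gave 10.87, 11.05 and 10.72 in mutant atria, 8.82, 8.73 and 8.62 in control atria and 11.65, 11.79 and 11.70 in ventricles. It rose by 2.16 ± 0.09 in mutant atria (limma adjusted p = 1.26e-06) and was higher by 2.99 ± 0.09 in ventricles than in control atria. Kcnk2, a potassium channel and the nearest gene on the other side, rose by 0.46 ± 0.07 (0.00258), and Esrrg, a nuclear receptor of oxidative metabolism, by 0.31 ± 0.08 (0.0305). The call for Esrrg was lost without mutant replicate 2 (0.0821) or 3 (0.106) or control atrium replicate 1 (0.0946) or 3 (0.0583). Ptpn14, the gene between Cenpf and Smyd2, differed by -0.11 ± 0.14 in mutant atria (0.595) and was lower in ventricles, by -1.32 ± 0.14. Prox1 (0.04 ± 0.11) and Rps6kc1 (-0.26 ± 0.10) were not called in mutant atria.

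The genes whose pattern was most like that of Cenpf were sought by the root mean square difference over the 9 arrays, each gene set to its own mean in control atria. The 8 closest of all genes were Mpped2 (0.61), Myl2 (0.77), Masp1 (0.86), Myh7 (0.90), Tesc (0.94), Irx3 (0.96), Gpr22 (0.99) and Fam81a (1.02), in log2 units. They include Myl2, the ventricular regulatory myosin light chain, Myh7, the slow myosin heavy chain, and Irx3, a homeobox factor of the ventricular conduction system, and none is among the 40 cell cycle genes. Mpped2 was higher than in control atria by 4.04 in mutant atria and 3.87 in ventricles, and Masp1 by 3.57 and 2.55. The nearest of the other cell cycle genes was Cdkn1a at rank 775 (2.91), followed by Ccna2 at 867, Cdk1 at 883 and Mki67 at 962, and the farthest was Anln at 16974. The measure uses size as well as direction, so a gene that differs little is far from Cenpf even when its groups lie in the same order.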

How the data were processed

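Total RNA was labelled by 3′ in vitro transcription and hybridised to Affymetrix mouse arrays, 3 per group. The deposited values are intensities per probe set on a linear scale, made by the authors with RMA per the submitters' processing notes; its version is not given in the sources used here. RMA corrects background and sets arrays to the same distribution, which compresses ratios near background. Their log2 was taken with no further normalisation. Of 45101 probe sets, those that are controls (64), name more than 1 gene (932) or name no gene (9160) were dropped, and the brightest probe set of each gene was kept. limma 3.58.1 in R 4.3.3 (lmFit, eBayes) fitted 1 mean per group to all 9 arrays, 2-sided, with Benjamini-Hochberg adjustment over 18193 genes; rose, fell, higher, lower and called mean an adjusted p under 0.05. SE is from that fit, and n is 3 arrays per group. Depth does not apply to arrays, and their number limits the precision. Array medians were 80.9 to 83.4, and arrays of a group correlated at 0.994 to 0.997 across genes.

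The genes, roles and lists were chosen with earlier results of these data known. Text names the 40 genes, every probe set of Cenpf, its 8 most alike genes, its measured neighbours and up to 2 genes per list, direction and comparison with the smallest p; Foxm1 falls under the ventricle comparison. Symbols in the lists were updated through RefSeq synonyms. As alternatives, the fit was repeated with replicate as a block, with an intensity trend, without dim genes, with other normalisations and probe set rules, an offset, only the groups compared, array weights, stricter thresholds or covariates of hepatocyte or Y-linked genes, and without each array; the same ones for genes outside the 40 and for single probe sets of Cenpf were added after seeing the data. The procedure was tested on simulated data. Promoter letters were searched and figures drawn with Python 3.11.15, pandas 2.3.3 and matplotlib 3.10.9.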

Additional observations from a re-analysis of the deposited data

How the results depend on the processing

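Cenpf kept its direction and its side of the threshold in all 3 comparisons under all 24 alternatives; with arrays left out its differences were 4.57 to 4.84 (mutant minus control atrium), 2.89 to 3.38 (ventricle minus control atrium) and 1.34 to 1.84 (mutant atrium minus ventricle). The counts of called genes moved more, as did the share called over all genes, and the cause was not tested. In mutant against control atria, 6 rose and 2 fell, and 17.5% of all genes were called. The count that fell was 1 with the replicate block, without the dimmest 40% of genes (17 of the 39 left), with quantile normalisation, an offset of 32, the mean of probe sets, probe sets without a suffix (33 left) and only the 2 groups compared, and 4 with the Y-linked covariate. These fits called 14.9% (replicate block) to 28.5% (without the dimmest genes) of all genes. Array weights gave 10 and 5 (24.9% of all genes called), and an adjusted p of 0.01 gave 2 and 0 (6.96%). At least 1.5-fold gave 2 and 0 (5.41%), and the hepatocyte covariate gave 1 and 0 (0.39%). With an array left out, 2 to 7 rose and 0 to 3 fell, and 10.1% to 16.9% of all genes were called. In ventricles against control atria, 9 were higher and 10 lower, and 52.8% of all genes were called. Higher counts were 5 without the dimmest genes (62.4% of all genes called) and 5 at an adjusted p of 0.01 (35.2%). They were 3 at 1.5-fold (17.4%) and 1 with the hepatocyte covariate (6.79%). Lower counts were 2 at 1.5-fold and 1 with that covariate. With an array left out, 7 to 11 were higher and 9 to 11 lower, and 42.6% to 52% of all genes were called. In mutant atria against ventricles, 6 were higher (6 to 7 with an array left out) and 2 lower (0 to 3). Of all genes, 32.7% were called (25.6% to 32.8% with an array left out). The lower count was 0 at an adjusted p of 0.01 (20.1% of all genes called), at 1.5-fold (11.4%) and with the Y-linked covariate (24.5%). Reversed directions occurred with the hepatocyte covariate for Cdk1 (-0.060) and E2f8 (-0.029) in mutant against control atria, and for Cdk1 (-0.11), Ccna2 (-0.015), Tpx2 (-0.25), Cdkn2a (-0.23) and Cenpl (0.077) in ventricles against control atria. They also occurred with the mean of probe sets for Lin52 (0.019, mutant) and without suffixes for Ncaph (-0.030) and Kif20b (0.093, both ventricle). The labels do not say whether replicate numbers pair the samples. Same-number deviations correlated at -0.10 to 0.12, other numbers at -0.16 to 0.15, and 3 of 9 arrays correlated best with their own number. With 3 arrays per group, these values show no pairing but cannot exclude it. With the replicate block, Cenpf was again 4.73, 3.14 and 1.59, and the counts were 5 and 1, 11 and 10, and 6 and 3. Of all genes, 14.9%, 50.6% and 30.6% were called with that block. Signal near background limits the 22 genes below the 40th percentile. Mki67, Top2a, Ccna2 and Ect2 are among them and were not tested in the fit without the dimmest 40% of genes.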
